A study of Mus musculus with 6 samples.

Results

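The adrenomedullin and endothelin systems are a pair of vasoactive peptide systems, and 9 of their genes, out of 35084 gene symbols in the files, were followed through 6 RNA-seq libraries of mouse astrocytes. The 9 genes were given by name. They are the ligand genes Adm and Edn1, the processing enzyme gene Ece1, the receptor genes Calcrl, Ednra and Ednrb, and the receptor activity-modifying protein (RAMP) genes Ramp1, Ramp2 and Ramp3. All 9 were found in the files and all 9 passed the filter on low counts. The 3 tumour libraries held astrocytes taken from mouse brains carrying an SCLC allograft. SCLC, small cell lung cancer, is a neuroendocrine lung carcinoma prone to brain metastasis. The 3 sham libraries held astrocytes from brains that received a sham injection. The sources used here do not give strain, age, sex, the tumour line, the time after injection or the way the astrocytes were isolated. The labels do not say whether libraries came from separate animals or cultures, so the p-values reflect only how much these libraries vary, and that variation may be technical. The comparison asks how astrocytes beside SCLC differ from control astrocytes.

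Adrenomedullin is a small amidated peptide that widens vessels, protects endothelial barriers and is induced by low oxygen in many cell types. Its receptor is a complex: the calcitonin receptor-like receptor, encoded by Calcrl, reaches the cell surface only together with a RAMP, and the RAMP sets the ligand preference. With RAMP1 the complex binds calcitonin gene-related peptide, and with RAMP2 or RAMP3 it binds adrenomedullin. Endothelin-1, encoded by Edn1, is a potent constrictor that is cut from its inactive precursor by the endothelin-converting enzyme, encoded by Ece1, and acts through the receptors ETA (Ednra) and ETB (Ednrb). In brain, ETB on astrocytes is known for its part in astrocyte reactivity and proliferation.

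The libraries held 22133723 to 25800897 estimated reads. The tumour libraries lay close together, as did sham 1 and sham 2 (root mean square log2 difference over tested genes 0.32 to 0.35 between near libraries), whereas sham 3 lay 0.802 and 0.795 from sham 1 and sham 2, farther than the 0.732 to 0.749 between tumour and sham libraries. For most of the 9 genes sham 3 lay at an end of the range: it was the highest of all 6 libraries for 4 of them and the lowest for 3. Results that rest on it are given with and without it. The labels list the near libraries as separate samples and do not say whether they share a preparation, so each was counted as 1 sample.

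The libraries were checked against marker genes. All 16 astrocyte markers were tested, 2 rose and 2 fell (25% called, beside 20.9% of all tested genes), and without sham 3, where 57.8% of genes were called, 3 were higher and 12 lower. They had a summed level of 10400 to 10600 TMM-scaled CPM (reads scaled to a common library size) in the tumour libraries, 13300 and 13400 CPM in sham 1 and sham 2, and 6120 CPM in sham 3. Fibroblast and meningeal markers were abundant too, at 6690 to 6820 CPM in the tumour and 7550 to 8510 CPM in the sham libraries. Of the 15 endothelial markers, Cldn5, Erg and Sox17 had 0 reads in all 6 libraries and Pecam1 had at most 0.499 CPM, while Cdh5 had 497 to 595 CPM. Their sum was 730 to 744 CPM in the tumour and 639 to 746 CPM in the sham libraries. Pericyte and smooth muscle markers summed to 569 to 580 CPM across tumour libraries. In sham 1 to 3 their sum was 339, 343 and 679 CPM. Among them Kcnj8 and Higd1b had at most 0.0908 CPM, while Pdgfrb had 110 to 157, Cspg4 47.1 to 101 and Notch3 36.9 to 55.9 CPM. SCLC and neuroendocrine markers summed to 136 to 141 CPM in the tumour and 119 to 167 CPM in the sham libraries, with 0 of 9 tested members called by edgeR (DESeq2 called 2 lower and limma-voom 1, and 2 were lower at an unadjusted p below 0.05), Chga at 0 in the tumour libraries and Grp at 0 in all 6. Of the epithelial genes of that list, Epcam, Krt8 and Krt18 were too scarce to test and had more reads in every tumour library. Epcam had 8, 8 and 6 reads against 0 in each sham library. Krt8 had 10, 11 and 8 against 4, 3 and 0, and Krt18 had 5, 5 and 7 against 1, 3 and 1. The epithelial gene Cdh1, which was tested, had 72, 61 and 41 reads against 85, 89 and 18. Its groups overlapped (log2 change -0.22, adjusted p = 0.817 in edgeR). The part of tumour RNA in the results was not tested. Microglia and macrophage markers summed to 211 to 220 CPM in the tumour and 171 to 192 CPM in the sham libraries, and Ptprc had at most 0.044 CPM. Neuron markers summed to 196 to 199 and 150 to 236 CPM in the tumour and sham libraries, and oligodendrocyte lineage markers to 171 to 175 and 183 to 331 CPM. In bulk RNA, fewer cells of a type and less RNA per cell cannot be told apart.

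Adm and Edn1, the ligand genes, were higher in the tumour libraries, and Ramp2 was lower. Of the 9 genes, 2 were called higher and 1 lower (adjusted p below 0.05 in edgeR's quasi-likelihood test, by Benjamini-Hochberg over 14346 tested genes). Of all tested genes 20.9% were called, 10.5% higher and 10.4% lower. The other 6 genes did not pass. DESeq2 and limma-voom called the same 3 genes, where they called 27.3% and 21.6% of all tested genes. The CPM values of the groups did not overlap for 5 of the 9 genes, 4 of them higher and 1 lower in the tumour libraries, beside 44.1% of all tested genes (22.2% higher and 22% lower). Without sham 3 all 9 genes were called, 7 higher and 2 lower, in a fit that called 57.8% of its tested genes (29.2% higher and 28.6% lower). The median log2 fold change of the 9 genes, tumour over sham, was 0.35, and that of all tested genes was -0.02.

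**Figure D1:**
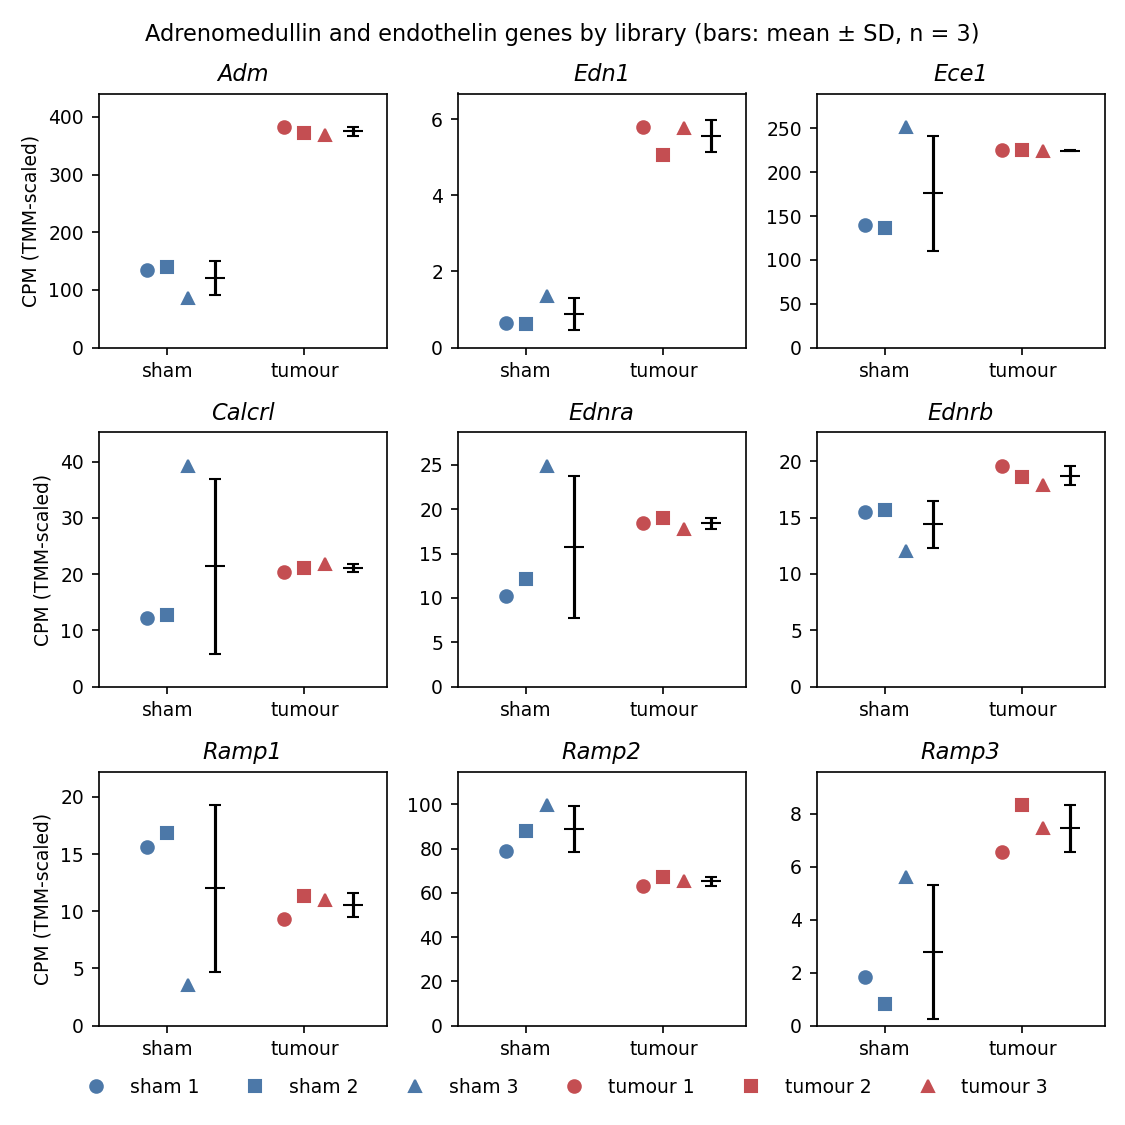
Level of each of the 9 genes in each library, in TMM-scaled CPM on linear axes from 0; symbols are libraries and black bars are the mean ± SD of 3 libraries. Adm (369 to 383 CPM in the tumour, 86.1 to 140 CPM in the sham libraries) and Edn1 separate the groups, whereas for Calcrl, Ednra and Ece1 sham 3 lies above all tumour libraries.

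Adm was the most abundant of the 9 genes per transcript length in the tumour libraries. The gene lies on chromosome 7 from 110627661 to 110629820 on the plus strand (GRCm38, GENCODE M21). Its level was 383, 372 and 369 CPM in tumour libraries 1 to 3 and 135, 140 and 86.1 CPM in sham libraries 1 to 3. Every tumour library was above every sham library, and sham 3 was the lowest. Adm rose 3.12-fold, from 120 ± 29.6 to 375 ± 7.38 CPM (SD, n = 3), and the log2 fold change was 1.64 (SE 0.19, adjusted p = 0.00307 in edgeR). The call held whichever single library was left out, with log2 fold changes of 1.45 to 1.76, and was lost (adjusted p = 0.999) when the tumour libraries were summed to 1 value and sham 1 and sham 2 to another. In that fit edgeR called 0 genes of any kind, and 2 of the 9 genes had an unadjusted p below 0.05. The protein-coding transcript Adm-201 carried 99.2% to 99.8% of the gene's reads in each library. An antisense gene, Gm28863, overlaps Adm in the annotation, and its reads could not be told apart from those of Adm without strand.

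Edn1 had the largest fold change of the 9 genes and was the least abundant of them per transcript length in both groups (mean TPM 4.13 in the tumour and 0.644 in the sham libraries). It lies on chromosome 13 from 42301476 to 42307990 on the plus strand. The tumour libraries held 140, 123 and 146 reads of it (5.80, 5.06 and 5.77 CPM) and the sham libraries 15, 15 and 30 reads (0.660, 0.623 and 1.36 CPM). The groups did not overlap, and sham 3 was the highest sham library. Edn1 rose from 0.882 ± 0.416 to 5.54 ± 0.418 CPM, and the log2 fold change was 2.65 (SE 0.33, adjusted p = 0.00413 in edgeR). The call held without any single library, with log2 fold changes of 2.45 to 3.10, and was lost with near libraries summed. Over the summed reads of each group, 409 against 60, the ratio was 6.36 with a 95% exact interval of 4.84 to 8.48, which covers counting error only. Genes on the opposite strand likewise overlap Edn1 (Gm47118), Ednra (4933431K23Rik) and Ece1 (Gm13012). Like Gm28863, these were not among the genes with counts. Gm11978, opposite Ramp3, had counts and stood at 0 reads in all 6 libraries. Endothelial cells are the best known source of endothelin-1. Among their markers 0 of 9 tested members rose, by edgeR, DESeq2 or limma-voom and also at an unadjusted p below 0.05, and 1 fell (20.9% of all tested genes were called). It was the VEGF receptor gene Kdr, which had 4.89 to 5.05 CPM in the tumour and 9.98 to 13.4 CPM in the sham libraries (log2 change -1.29, adjusted p = 0.00346 in edgeR). Another VEGF receptor gene, Flt1, did not pass, but was higher in every tumour library, with 34.4 to 37.6 CPM against 8.88, 8.94 and 33.9 CPM in sham 1 to 3. Esam, an endothelial adhesion molecule gene, did not pass either and had 26.8 to 30.7 CPM against 9.76, 11.4 and 26.4 CPM. The median log2 fold change of the 9 markers was 0.05, and without sham 3 it was 0.37. In that fit 4 were called higher and 2 lower (66.7%, beside 57.8% of all genes, 29.2% higher and 28.6% lower). The part of endothelial RNA in the Edn1 result was not tested.

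The bases before the starts of the genes that rose are shown because low oxygen is a known inducer of both. Windows of 250 bases before each RefSeq start (GRCm38.p6) were searched for ACGTG and GCGTG on both strands, the letters at the core of the element bound by hypoxia-inducible factors. The windows are chr7:110627407-110627656 for Adm and chr13:42301226-42301475 for Edn1, both on the plus strand. Capitals mark the matches.
Adm: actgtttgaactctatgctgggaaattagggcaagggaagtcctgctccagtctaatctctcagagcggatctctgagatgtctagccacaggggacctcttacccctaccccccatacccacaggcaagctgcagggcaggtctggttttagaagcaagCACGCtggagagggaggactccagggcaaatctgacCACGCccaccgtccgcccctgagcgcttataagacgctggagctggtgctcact
Edn1: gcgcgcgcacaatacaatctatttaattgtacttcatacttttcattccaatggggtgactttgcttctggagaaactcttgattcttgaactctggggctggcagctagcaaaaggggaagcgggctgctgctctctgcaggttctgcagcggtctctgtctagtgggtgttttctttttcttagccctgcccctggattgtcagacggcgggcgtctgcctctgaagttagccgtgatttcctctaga
The Adm window held 2 matches, CACGC at 90 to 86 and at 54 to 50 bases before the start, which read GCGTG on the other strand. The Edn1 window held 0. At least 1 match was present in 38.6% of 32851 such windows in the RefSeq table and 2 or more in 16.7%. Of the 9 genes 8 were matched in that table. Ramp3, on chromosome 11, had 2 matches, Ednrb 1, and Calcrl, Ramp1 and Ednra 0, while the windows of the 4 annotated Ece1 starts held 1, 1, 4 and 0.

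Of the 3 receptor and 3 RAMP genes, 1 passed the test with all 6 libraries. Calcrl, the shared receptor gene of adrenomedullin and calcitonin gene-related peptide (chromosome 2, 84330626 to 84425411, minus strand), had 20.4, 21.1 and 21.8 CPM in the tumour libraries. In the sham libraries it had 12.2, 12.7 and 39.3 CPM. Sham 1 and sham 2 lay below the tumour libraries and sham 3 above them. The group means were 21.1 ± 0.736 and 21.4 ± 15.5 CPM, and the log2 fold change was -0.02 (SE 0.45, adjusted p = 0.982 in edgeR). Without sham 3 the log2 fold change was 0.76 (adjusted p = 1.94e-08 in edgeR). Salmon placed 29.1% to 41.8% of Calcrl reads on the shorter coding transcript Calcrl-202 in the tumour libraries, and 0% in sham 1 against 33.8% in sham 2, so the split between the transcripts was not stable between near libraries.

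Ramp2, whose protein pairs with the receptor to form the main adrenomedullin receptor, was the only RAMP gene that passed the test, and it fell. It lies on chromosome 11 from 101246028 to 101259546 on the plus strand. It had 62.9, 67.3 and 65.1 CPM in the tumour libraries, against 78.9, 87.7 and 99.8 CPM in the sham libraries. All tumour libraries were below all sham libraries. The means were 65.1 ± 2.21 and 88.8 ± 10.5 CPM, and the log2 fold change was -0.45 (SE 0.09, adjusted p = 0.0206 in edgeR). This call ended without tumour 1 (adjusted p = 0.099), tumour 2 (0.0789), tumour 3 (0.0922) or sham 2 (0.0635), with the same sign in each. Of its 8 transcripts, Ramp2-204 carried 78.3% to 90.2% of the reads. Ramp2-203, which runs into the neighbouring gene Vps25, carried 5.91% to 7.91% in the tumour and 3.11% to 4.47% in the sham libraries.

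Ramp3, the other adrenomedullin receptor partner (chromosome 11, 6658521 to 6677475, plus strand), had 6.58, 8.35 and 7.46 CPM in the tumour libraries. Its sham values were 1.85, 0.831 and 5.63 CPM. The groups did not overlap, but sham 3 lay just under the tumour libraries. The log2 fold change was 1.44 (SE 0.61), and Ramp3 did not pass the test (adjusted p = 0.146 in edgeR). Without sham 3 it was 2.48 (adjusted p = 7.21e-11 in edgeR). Ramp1, the partner for calcitonin gene-related peptide (chromosome 1, 91179822 to 91225196, plus strand), had 9.36, 11.3 and 11.0 CPM in the tumour libraries, against 15.6, 16.8 and 3.59 CPM in the sham libraries. Its tumour values lay between sham 3 and the other sham libraries, with and the log2 fold change was -0.19 (SE 0.51, adjusted p = 0.827 in edgeR) and of -0.62 without sham 3 (adjusted p = 1.24e-05 in edgeR).

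**Figure D2:**
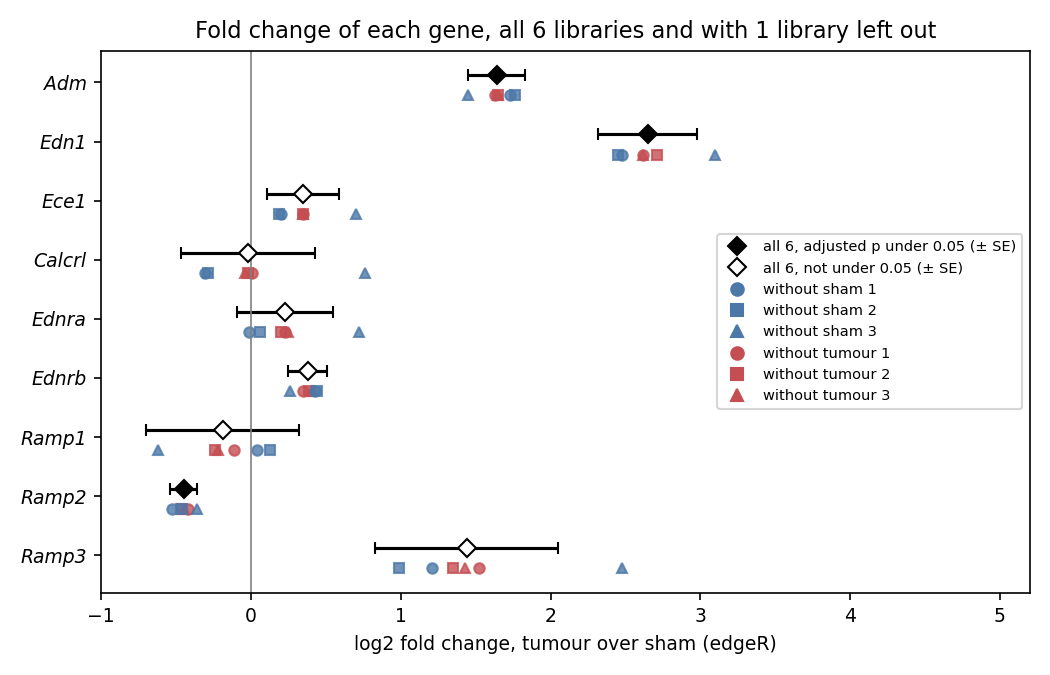
Log2 fold change, tumour over sham, of each gene in the edgeR fit of all 6 libraries (diamonds, ± SE; filled where the adjusted p was below 0.05) and with 1 library left out (coloured symbols). Adm (1.45 to 1.76) and Edn1 (2.45 to 3.10) stay above 1 throughout, whereas Calcrl, Ednra, Ece1 and Ramp3 move upward when sham 3 is left out.

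Ednra, which encodes the ETA receptor, lies on chromosome 8 from 77663031 to 77724464 on the minus strand. It had 18.4, 19.0 and 17.8 CPM in the tumour libraries, against 10.2, 12.1 and 24.9 CPM in the sham libraries. Sham 3 was again above the tumour libraries and sham 1 and sham 2 below them. The log2 fold change was 0.23 (SE 0.32, adjusted p = 0.66 in edgeR), and 0.72 without sham 3 (adjusted p = 3.08e-07 in edgeR). ETA is well known from vascular smooth muscle. The summed smooth muscle and pericyte markers given above had the same order, with sham 3 highest and sham 1 and sham 2 lowest. Of the tested markers, Acta2, Pdgfrb, Cspg4, Cnn1, Notch3 and Rgs5 had that order, and Tagln, Myh11 and Vtn did not. Tagln had 116 CPM in sham 3 and 120 to 122 CPM in the tumour libraries. Vtn had 1.23 CPM in sham 3 against 3.96 and 4.24 CPM in sham 1 and sham 2. The part of smooth muscle and pericyte RNA in the Ednra result was not tested.

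Ednrb, which encodes the astrocyte endothelin receptor ETB, lies on chromosome 14 from 103814625 to 103844402 on the minus strand. It had 19.6, 18.6 and 17.9 CPM in the tumour libraries, against 15.5, 15.7 and 12 CPM in the sham libraries. The groups did not overlap and the difference was small. The means were 18.7 ± 0.851 and 14.4 ± 2.08 CPM, a log2 fold change of 0.38 (SE 0.13) that did not pass the test (adjusted p = 0.0782 in edgeR). Without sham 3 it was 0.26 (adjusted p = 0.0172 in edgeR). The reads were divided among 3 coding transcripts, with 37.4% to 61.0% on Ednrb-201 in the tumour and 32.5% to 73.6% in the sham libraries, a split that varied between near libraries.

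Ece1, which encodes the endothelin-converting enzyme, lies on chromosome 4 from 137862237 to 137965229 on the plus strand. It had 225, 225 and 224 CPM in the tumour libraries, against 140, 136 and 252 CPM in the sham libraries. As for Calcrl and Ednra, sham 3 lay above and sham 1 and sham 2 below the tumour libraries. The log2 fold change was 0.35 (SE 0.24, adjusted p = 0.342 in edgeR), and 0.70 without sham 3 (adjusted p = 2.02e-19 in edgeR). Ece1-201, the transcript of 4816 bases, carried 95.9% to 97.3% of the reads.

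Levels of different genes were compared per transcript length, as TPM, the length-corrected measure that Salmon gives. In the tumour libraries Adm stood at 453 ± 15.2 TPM, Ramp2 at 95.3 ± 2.16, Calcrl at 11.2 ± 0.742, Ramp3 at 10.9 ± 1.02, Ednrb at 8.40 ± 0.162, Ednra at 8.21 ± 0.257, Ramp1 at 7.35 ± 0.705 and Edn1 at 4.13 ± 0.354 TPM (SD, n = 3). Calcrl and Ramp3, Ednrb and Ednra, and Ednra and Ramp1 were neighbours whose ranges overlapped or touched within their SDs. Ece1 could not be placed by its summed TPM, which ran from 87.8 to 170 TPM in the tumour libraries because 6.0 to 38.0 reads on Ece1-203, a transcript of 172 bases, added 14.8 to 96.0 TPM. By Ece1-201 alone it stood at 56.1 ± 0.987 TPM, between Ramp2 and Calcrl. In the sham libraries Adm had 138 ± 33.8 TPM and Ramp2 had 138 ± 21.6 TPM. Adm was above Ramp2 in sham 1 (151 against 118 TPM) and sham 2 (163 against 136 TPM) and below it in sham 3 (99.7 against 161 TPM), while in the tumour libraries Adm was above Ramp2 in all 3.

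Ratios between the receptor genes, per length, were given for each library without a test. Ramp3 stood at 0.105, 0.130 and 0.111 of Ramp2 in the tumour libraries and at 0.0218, 0.00875 and 0.0513 in the sham libraries. These groups did not overlap, and Ramp2 was the most abundant RAMP gene in all 6. Calcrl stood at 0.109 to 0.124 of Ramp2 in the tumour libraries, at 0.0413 and 0.0577 in sham 1 and sham 2, and at 0.133 in sham 3. Ednra and Ednrb were near parity in the tumour libraries, with ratios of 0.970, 0.995 and 0.965. In sham 1 and sham 2 Ednra was the lower of the pair (0.738 and 0.787), and in sham 3 it was the higher (2.07).

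**Figure D3:**
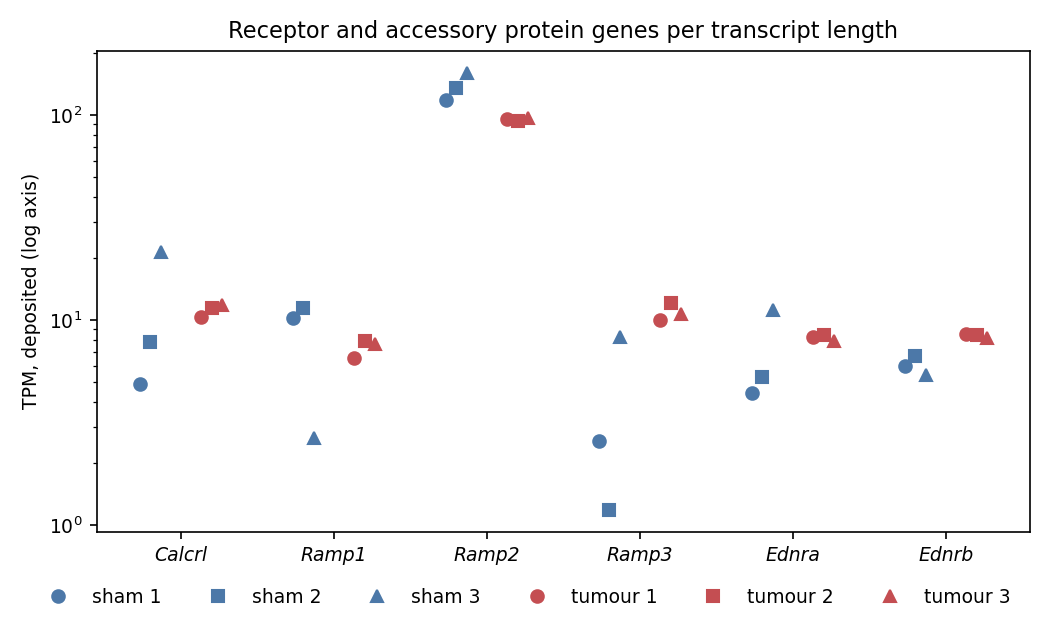
Deposited TPM of the 3 receptor genes and 3 RAMP genes in each library, on a log axis. Ramp2 is the highest in every library (93.0 to 161 TPM), and sham 3 stands apart from sham 1 and sham 2 for Calcrl, Ramp1, Ramp3 and Ednra.

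Other genes of the adrenomedullin pathway were taken from a list of 32, of which 30 were tested. Of these, 6 were called higher and 2 lower (26.7%, beside 20.9% of all tested genes), with a median log2 fold change of 0.17. Without Adm2 and Adcy7, which passed the filter on low counts through 1 group only, 5 rose and 2 fell among 28. Adm2, which encodes intermedin, a related peptide that uses the same receptors, had 146, 146 and 135 reads in the tumour libraries and 1, 2 and 2 reads in the sham libraries. It passed the filter only through the tumour libraries, where it was high, so its test is not given. Over summed reads the ratio was 79.6, which rests on 5 sham reads and is a description only. Prkar2b, a regulatory subunit of the cAMP-dependent kinase, had 24.1 to 27.7 CPM in the tumour and 11.0 to 12.1 CPM in the sham libraries (log2 change 1.19, adjusted p = 0.000874 in edgeR). Adcy5, an adenylate cyclase, fell from 42.8 to 55.4 CPM in the sham libraries to 24 to 26 CPM in the tumour libraries (-0.99, adjusted p = 0.00274 in edgeR). Pde4a, a cAMP phosphodiesterase, rose from 12.4 ± 0.512 to 20.4 ± 2.77 CPM (0.72, adjusted p = 0.0105 in edgeR), a call that ended without tumour 1 or tumour 2. Prkar2b and Adcy5 kept their calls without any single library. Without sham 3 the list had 14 genes higher and 6 lower (66.7% called, beside 57.8% of all genes in that fit). Its count of rises was 2, 2 and 3 without tumour 1, 2 or 3 and 3 without sham 1. Its count of falls was 1 without any one of the other 5 libraries. Calls over all genes dropped too. With all 6 libraries 1505 genes were higher and 1494 lower. Without 1 tumour library 538 to 543 were higher and 358 to 383 lower. Without sham 1 or sham 2, 850 and 825 were higher and 759 and 693 lower.

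The list also held genes, named after their values were seen, that make, clear or compete for the peptide. Pam, the enzyme that amidates adrenomedullin, had 334 to 345 CPM in the tumour and 188, 189 and 293 CPM in the sham libraries and did not pass (log2 change 0.60, SE 0.18, adjusted p = 0.0611 in edgeR). The scavenger receptor gene Ackr3 had 51.1 to 55.9 and 38.2 to 53.8 CPM (0.17, adjusted p = 0.39 in edgeR), and the peptidase gene Mme had 30.2 to 35.2 and 22.5 to 30.8 CPM (0.28, adjusted p = 0.167 in edgeR). Calca, which gives rise to calcitonin and calcitonin gene-related peptide, had 7.03 to 7.69 CPM across tumour libraries, 13.8 and 12.2 CPM in sham 1 and sham 2 and 3.63 CPM in sham 3 (-0.42, adjusted p = 0.543 in edgeR).

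Of 31 further endothelin pathway genes 29 were tested, of which 7 were called higher and 0 lower in edgeR (24.1%, beside 20.9% of all tested genes), with a median log2 fold change of 0.11. Edn2, Ecel1 and Rgs5 passed the filter only through the tumour libraries, and without them 5 of 26 rose (19.2%). At an unadjusted p below 0.05, 2 were lower, and DESeq2 and limma-voom each called 8 higher and 0 lower. Edn2, which encodes endothelin-2, had 51, 40 and 64 reads in the tumour libraries and 1, 0 and 0 reads in the sham libraries. The ratio over summed reads was 145, which rests on 1 sham read and is a description only. Its test is not given. Edn3, the endothelin gene best known from neural crest development and named after its values were seen, had 22.8 to 26.5 CPM across tumour libraries, 24.1 and 25.8 CPM in sham 1 and sham 2 and 8.03 CPM in sham 3 (log2 change 0.35, SE 0.40, adjusted p = 0.572 in edgeR). Gna13, a G protein alpha subunit gene, rose from 154 ± 5.98 to 254 ± 4.23 CPM (0.72, adjusted p = 0.00162 in edgeR). Gna13 kept its call without any single library. Ecel1, a relative of the converting enzyme, had 2.17 to 2.44 CPM in the tumour and 0.363 to 0.914 CPM in the sham libraries, from 9, 22 and 8 reads in sham 1 to 3. Its test is not given for the same reason. Itpr2, an inositol trisphosphate receptor gene, rose from 36.8 ± 2.36 to 46.2 ± 1.57 CPM (0.33, adjusted p = 0.024 in edgeR). Among the fits that left out 1 library, the Itpr2 call was kept only without sham 3. Itpr1 (52.7 to 114 CPM) and Itpr3 (75.6 to 147 CPM), named after their values were seen, were above Itpr2 in every library. Neither was called. Ece2 missed the threshold (0.38, adjusted p = 0.0501 in edgeR). The list's count of rises was 2 without any one tumour library, 2 and 3 without sham 1 or sham 2, and 14, with 6 falls, without sham 3 (69% called, beside 57.8% of all genes in that fit). Rises over all genes numbered 1505 with all 6 libraries and 538 to 543 without 1 tumour library. They numbered 850 and 825 without sham 1 or sham 2.

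**Figure D4:**
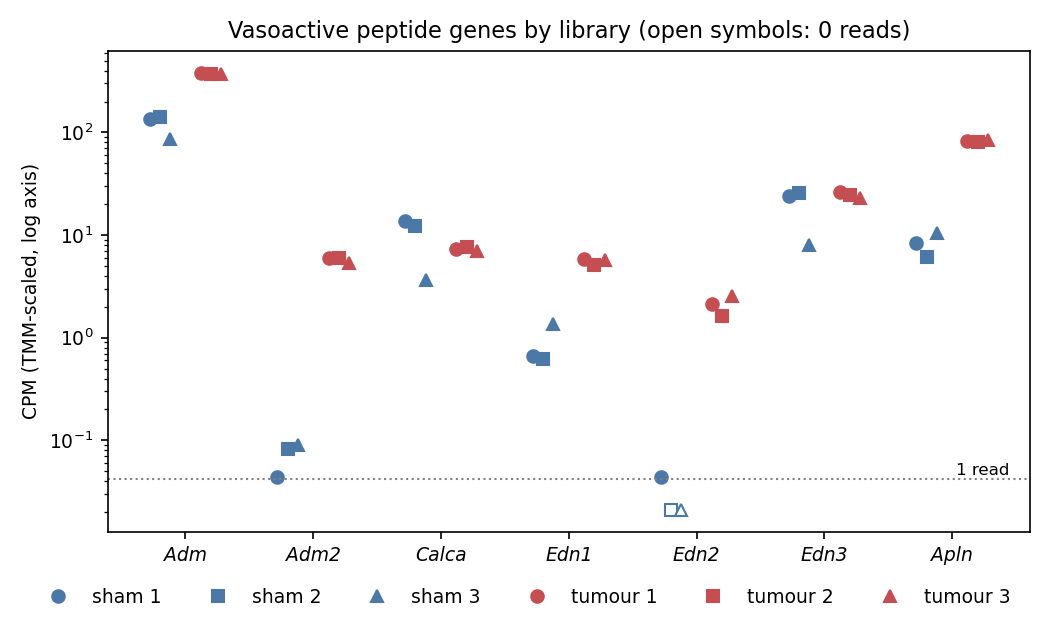
CPM of 7 vasoactive peptide genes in each library on a log axis; open symbols mark 0 reads and are drawn below the dotted line, which is the mean CPM of 1 read. Adm, Adm2, Edn1, Edn2 and Apln are higher in every tumour library than in every sham library, while for Calca and Edn3 the groups overlap.

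Of 36 genes of other vasoactive peptide systems 17 were tested, 1 rose and 2 fell (17.6% called, beside 20.9% of all tested genes). The most abundant by CPM was Ace, the angiotensin-converting enzyme gene, with 2330, 2370 and 2380 CPM in the tumour libraries. Its sham values were 829, 854 and 1790 CPM, all lower, and it did not pass (log2 change 1.03, SE 0.31, adjusted p = 0.0619 in edgeR). Vip, Uts2 and Uts2r had 0 reads throughout. The gene that rose was Apln, which encodes the vessel-acting peptide apelin, at 82.6, 81.4 and 84.6 CPM in the tumour and 8.44, 6.15 and 10.5 CPM in the sham libraries (log2 change 3.31, SE 0.18, adjusted p = 0.000307 in edgeR). Its receptor gene Aplnr had 1 read in tumour 2 and 0 in the other libraries. Agtr2, an angiotensin receptor gene, fell from 31.3 ± 7.35 to 11.7 ± 0.81 CPM (-1.42, adjusted p = 0.00467 in edgeR), and Enpep, an aminopeptidase that trims angiotensin, from 26.5 ± 10.9 to 7.16 ± 0.972 CPM (-1.89, adjusted p = 0.0127 in edgeR), the latter a call that ended without any one tumour library. Without sham 3 the counts were 6 higher and 4 lower (58.8%, beside 57.8% of all genes in that fit), and without any one tumour library 1 fell. Falls over all genes numbered 1494 with all 6 libraries and 358 to 383 without 1 tumour library. Of 20 genes known to respond to low oxygen, 18 were called higher and 0 lower in edgeR (median log2 fold change 2.31), beside 10.5% of all tested genes called higher, and at an unadjusted p below 0.05 all 20 were higher and 0 lower. DESeq2 called 19 higher and limma-voom 18, with 0 lower in both. Ndufa4l2 had 864, 830 and 916 reads in the tumour libraries and 5, 3 and 4 reads in the sham libraries. It passed the filter only through the tumour libraries, so its test is not given. Without it 17 of 19 rose (median 2.07), and the smallest p among these were those of Slc2a3 (log2 change 1.91), Pdk1 (2.07) and Bnip3 (2.55). None of the 20 was among the 5 genes nearest in pattern to Adm or Edn1. That is not a test of a shared response, because only 5 of 10882 genes are kept and the distance depends on fold size. Earlier results of these libraries had shown the rise of low-oxygen genes, and their relation to Adm and Edn1 was not tested.

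The genes most like Adm across the 6 libraries were found among 10882 tested genes with a mean of at least 5 CPM, by the root mean square difference of centred log2 CPM. They were Anln (0.102), Pdk4 (0.119), Epm2a (0.121), Maff (0.121) and Rora (0.126). Like Adm, all 5 were lowest in sham 3. Anln, for example, had 155 to 157 CPM across tumour libraries, 65.6 and 66.7 CPM in sham 1 and sham 2 and 36.1 CPM in sham 3. The nearest to Edn1 were Cd68 (0.160), Vldlr (0.190), Itga11 (0.193), Bst1 (0.197) and Tmem45a (0.212), each with its highest sham value in sham 3. Cd68, a lysosomal protein gene known from macrophages, had 41.3 to 45.7 CPM in the tumour and 5.07 to 10.2 CPM in the sham libraries, while the macrophage markers Ptprc and Csf1r had at most 0.044 and 0.952 CPM. Vat1 (0.0675), Efhd2 (0.0684), Tspan5 (0.0720), Pxylp1 (0.0727) and Rack1 (0.0793) were nearest to Ednra, and all of them were highest in sham 3. Among those nearest to Ednrb were Hivep2 (0.0231), Ppp1r15b (0.0267), Cep57 (0.0308) and Secisbp2l (0.0360). Genes with small changes lie close to many others by this measure, so the distances of different genes are not comparable.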

How the data were processed

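Gene expression was measured by RNA-seq in 6 libraries, 3 per group, with groups and replicate numbers taken from the sample titles. The deposited values are estimated counts (expected reads) and TPM per transcript, with transcript lengths. Salmon 0.8.2, DESeq2 1.28.1 and the mm10 build are named in the submitters' processing notes, and the column names, per the file headers, are Salmon's. The authors' TPM values were summed per gene for levels and ratios. The sources used here give no library kit, strandedness or read length.

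Of 113116 transcripts, 112841 were matched without version to GENCODE M21, covering 99.947% to 99.958% of reads, and 275 were not used. Reads were then summed by gene symbol and rounded. edgeR 4.0.16 (R 4.3.3) was used with TMM, filterByExpr (count at least 10, total at least 15), robust dispersions, a quasi-likelihood model of group alone and Benjamini-Hochberg adjustment at 0.05. Each SE is the log2 fold change over the root of F, so it restates the test. CPM values use TMM library sizes, and log2 CPM a prior count of 2. DESeq2 1.42.0, limma-voom 3.58.1, other scalings, no filter, length offsets, the replicate block, leaving out each library and summing near libraries were alternatives. The tests were tried on simulated data. The 9 genes and the lists were chosen with earlier results of these data known. The text names the 9 genes, up to 4 called genes per pathway list with the smallest p, and the 5 genes most like Adm, Edn1, Ednra and Ednrb, leaving out predicted, mitochondrial and ribosomal protein genes. For Ednrb, 1 of these genes is not reported here. List counts without genes that passed the filter through 1 group only were added after seeing the data. Promoter sequences are RefSeq's (GRCm38.p6). Correlations of deviations of same-numbered libraries were near 0 (0.00556, -0.0172 and -0.00647). They cannot exclude a pairing by number, because sham 3 dominated the sham deviations (correlations -0.832 and -0.825 with sham 1 and sham 2).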

Additional observations from a re-analysis of the deposited data

How the results depend on the processing

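Over 14 alternatives, the 9 genes kept their direction and their side of the threshold in 104 of 126 values, with 7 calls lost, 5 gained at the same sign and 10 signs turned, 1 of which (Calcrl without sham 3) also gained a call. Adm and Edn1 were called in 13 of 14 alternatives each and Ramp2 in 9. Members called numbered 2 to 7 higher and 0 to 2 lower with 1 library left out, where over all genes 538 to 4260 were higher and 358 to 4183 lower, the highest counts without sham 3. Where 0 members were called lower without 1 library, Ramp2 had an unadjusted p below 0.05 in edgeR. With near libraries summed, edgeR called 0 members and 0 genes in either direction, with 403 genes higher and 173 lower at an unadjusted p below 0.05. With the replicate block, which no label justifies, 830 genes were higher and 613 lower, and no call among the 9 genes changed. With transcript length offsets 969 genes were lower. Signs turned for Calcrl with limma-voom (0.22), the replicate block (0.20), without tumour 1 (0.01) and without sham 3 (0.76). They turned for Ramp1 with limma-voom (0.08), the replicate block (0.03), near libraries summed (0.08), and without sham 1 (0.04) or sham 2 (0.13), and for Ednra without sham 1 (-0.01). Among 35 other named genes 418 of 490 values were unchanged in call and sign. The sign turned for Vat1 without sham 1 (-0.02) and with near libraries summed (-0.01), for Efhd2 without sham 1 (-0.11), without sham 2 (-0.06) and with near libraries summed (-0.09), and for Pxylp1 with length offsets (-0.03). With 1 library left out, log2 fold changes ran from -0.31 to 0.76 for Calcrl, -0.62 to 0.13 for Ramp1, -0.01 to 0.72 for Ednra, -0.02 to 0.78 for Vat1 and -0.11 to 0.60 for Efhd2. The cause was not tested. List counts stayed within 1.5 times in 83 of 120 values. In 28 alternative values the log2 tumour minus sham differences of the 4 receptor ratios moved by less than 1 SD. That SD was of the libraries' log2 ratios, pooled over both groups. Leaving out 1 of 3 libraries cannot move a difference by as much, so those values are no check. The tumour ratios of Ednra to Ednrb (0.965 to 0.995) lay above sham 1 and sham 2 (0.738 and 0.787) and below sham 3 (2.07). Those of Ramp1 to Ramp2 (0.0684 to 0.0848) lay below sham 1 and sham 2 (0.0867 and 0.0849) and above sham 3 (0.0165). The direction of both rested on sham 3. For Ece1, TPM of the longest transcript alone, chosen after seeing the data, gave a log2 difference of 0.43 against 0.52. Edn1, Edn2, Adm2 and Ramp3 rest on few sham reads, which limits the precision of their folds.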
